A study of Mus musculus with 6 samples.

Results

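Translation initiation and elongation factors are described here in mouse macrophages that had been stimulated while S-adenosylhomocysteine hydrolase (SAHH) was lowered. The members are the protein-coding genes whose symbols start with Eif1, Eif2, Eif3, Eif4, Eif5, Eif6 or Eef. The eIF2α kinase genes (Eif2ak) and Eif4ebp1 were left out of the members and are described as regulators instead. This rule gave 64 genes of the 54532 in the table, of which 22046 are protein-coding.

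The data are bulk RNA-seq of 6 libraries, 3 labelled Ctrl and 3 labelled SAHH_KO, written SAHH-KO below. All cells were mouse peritoneal macrophages recruited with thioglycollate, taken after 4 days, selected by 6 h of adherence and cultured in RPMI-1640 with serum. All of them then received interferon-γ at 2 ng/mL together with lipopolysaccharide at 10 ng/mL for 8 h, so both groups hold stimulated cells. The control cells carry the labels shControl and WT, and the others the labels SAHH-KO and SAHH knockdown. The labels do not settle which of these the cells were, and strain, sex and age are not given in the sources used here. The labels do not tie the replicates to different animals or cultures, and the tests rest on the scatter among the 3 libraries of a group, part or all of which may be technical.

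Ahcy, the gene of the targeted enzyme, read 25.8, 22.6 and 24.4 FPKM in the controls and 5.51, 5.504 and 6.23 in the SAHH-KO libraries. All SAHH-KO libraries lay below all controls (log2 fold change -1.90, SE 0.0873, limma adjusted p = 1.44e-06). Fold changes and standard errors (SE) here are on the log2(FPKM + 1) scale, SAHH-KO minus control, from limma, a linear model that shares its variance estimate across genes, and p-values are Benjamini-Hochberg adjusted over every gene tested. Reads assigned to genes came to 15540442 to 16676534 per control library and 15856261 to 17748745 per SAHH-KO library, and 3 reads on a gene of 1 kb were worth 0.168 to 0.197 FPKM (fragments per kilobase, with the authors' scaling for library size). Of 8 macrophage markers 7 had a mean of at least 1 FPKM, and their sum was 8344 to 8645 FPKM over the controls and 9320 to 10586 FPKM over the SAHH-KO libraries, most of it Lyz2. Single markers did not all move alike. Lyz2, Cd14, Itgam, Adgre1 (77.0 to 80.5 FPKM in the controls, 141 to 190 in SAHH-KO) and Fcgr1 (2.47 to 2.68, and 10.7 to 15.9) were higher in every SAHH-KO library. Csf1r was lower (99.5 to 115, and 86.0 to 98.5), Cd68 overlapped, and Mertk stayed at or below 0.0139 FPKM. Marker sums of B cells, of T and NK cells, of mast cells, of eosinophils and of fibroblasts with mesothelium stayed at or below 0.370 FPKM in every library. The neutrophil list summed to 4.76 to 5.66 FPKM over the controls and 0.437 to 0.820 FPKM over the SAHH-KO libraries. S100a8 read 4.13 to 5.10 FPKM in the controls and 0 to 0.473 in SAHH-KO, and the rest was Camp at 0.343 to 0.630 over all libraries, with Ly6g, S100a9 and Mpo at 0 reads. The part of these differences in the results below was not tested, and in bulk RNA fewer cells of a type and less RNA per cell cannot be told apart.

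As background, translation starts when eIF2 carries the initiator tRNA in its GTP-bound form to the small ribosomal subunit, together with eIF1, eIF1A, eIF3 and eIF5. The eIF4F complex, made of the cap-binding protein eIF4E, the scaffold eIF4G and the helicase eIF4A, brings the mRNA. After the start codon is found, eIF5B joins the large subunit, eIF2B reloads eIF2 with GTP, and elongation proceeds through eEF1A, which delivers aminoacyl-tRNA, and eEF2, which translocates the ribosome. Activated macrophages make large amounts of secreted protein, and interferon-inducible PKR (Eif2ak2) can shut initiation down by phosphorylating eIF2α.

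The abundant elongation factor mRNAs Eef1a1 and Eef2 and the eIF3 subunit mRNAs Eif3c and Eif3f rose in SAHH-KO, while most initiation factor genes that changed fell, among them Eif2b1, Eif1b, Eif2b4 and Eif5a. Genes with at least 1 FPKM in at least 3 libraries were tested, which kept 59 of the 64 members. Of these 59, 9 were higher and 25 lower in SAHH-KO at an adjusted p under 0.05, and 25 did not pass. Among the 9, Eef2k, was tested only through its SAHH-KO values, as given below. Over all 10362 genes tested, 26.4% were higher and 26.8% lower, 53.3% in either direction. With FPKM rescaled to TPM, so that every library sums to the same total, the split was 6 higher and 34 lower among the members and 2006 and 3894 among all genes, and with scaling by assigned reads it was 6 and 35, and 2033 and 3905. Those scalings move the median of all genes by -0.15 and -0.13 on the log2 scale, so small changes below are to be read against that shift. The median log2 fold change was -0.19 over the tested members and -0.01 over all tested genes, and the median size without sign was 0.29 and 0.32. Groups did not overlap for 41 tested members, where the share over all tested genes was 62.3%. A change of at least 2-fold on the log2(FPKM + 1) scale was called for 1 member, Eif2b1, against 10.6% of all genes.

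**Figure D1:**
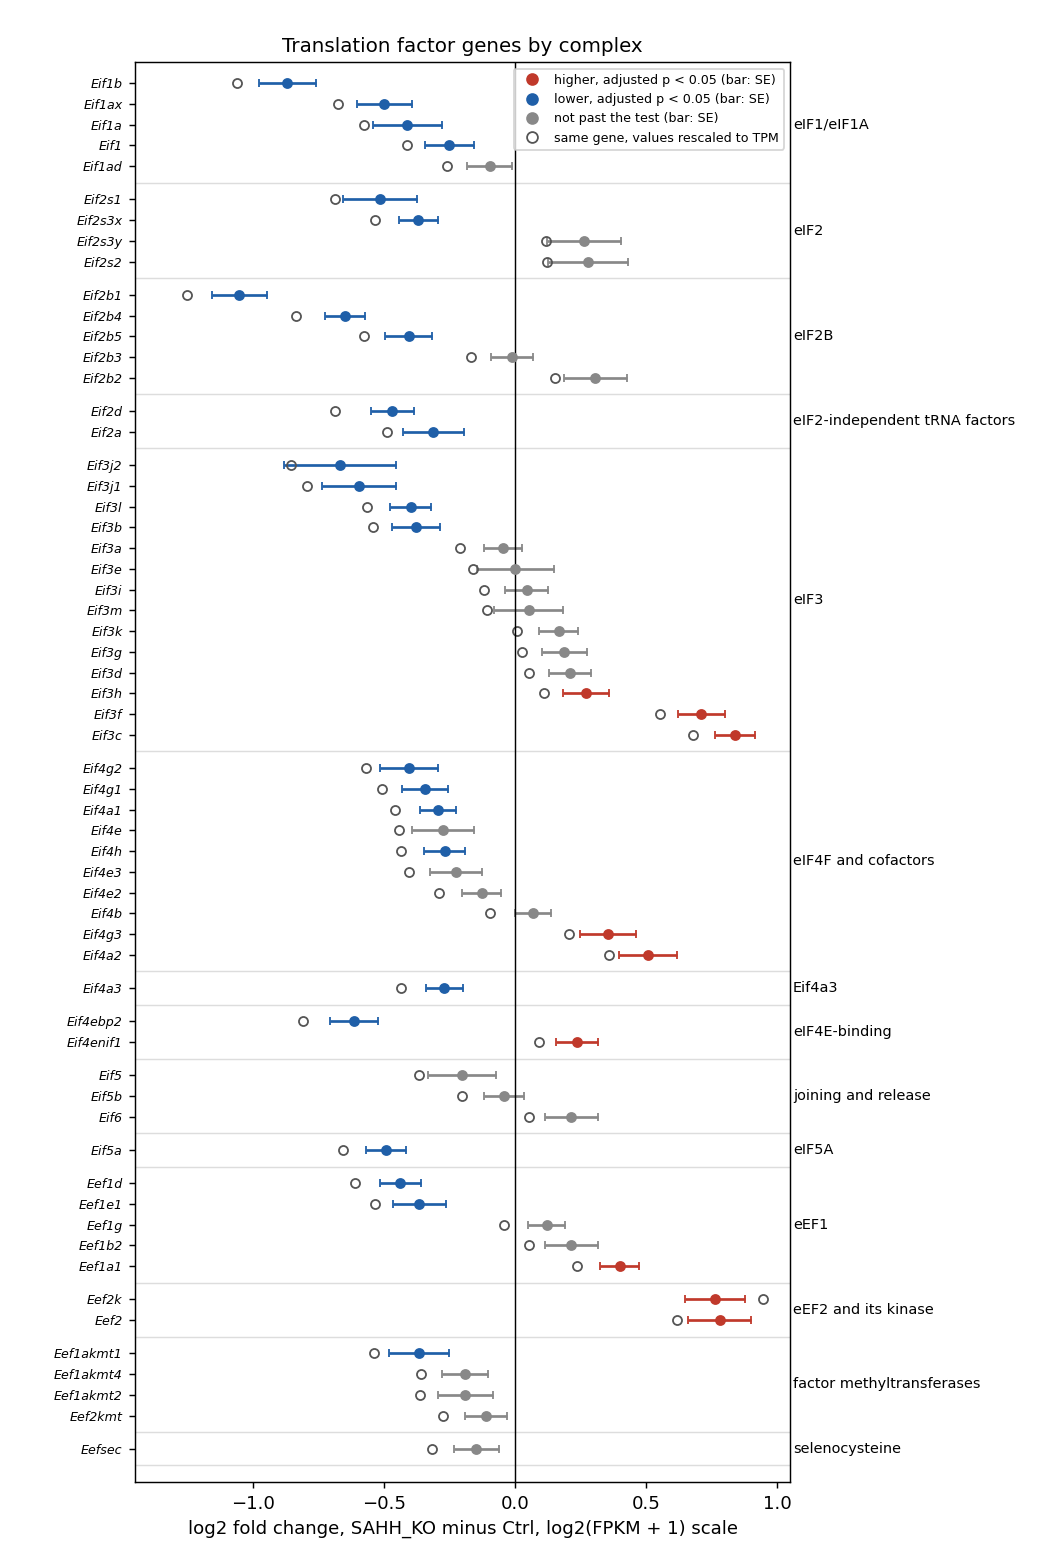
Log2 fold change (SAHH-KO minus control, on log2(FPKM + 1)) of each tested member, grouped by complex, with the standard error of the limma fit as bars and the value after TPM scaling as open circles. Eif3c, Eef2, Eef2k and Eif3f stand farthest to the right at 0.71 to 0.84, and Eif2b1 farthest to the left at -1.05. Eef2k was tested only through its SAHH-KO values.

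By name, 47 initiation factor genes (Eif) were tested, of which 6 rose and 22 fell, with a median of -0.23. Of 12 elongation factor genes (Eef) tested, 3 rose and 3 fell, with a median of -0.13. The 3 that rose include Eef2k, which was tested only through its SAHH-KO values, so the share of Eef genes that were higher rests partly on the filter. As shares, 12.8% of the Eif genes were higher and 46.8% lower, and 25% of the Eef genes each way. Over all tested genes the shares were 26.4% and 26.8%, near those of the Eef genes. Summed over genes within each library, the classes went in opposite directions, with few genes giving most of each difference. The initiation factor genes added up to 3870 ± 84.7 FPKM (SD, n = 3) for the controls and to 3510 ± 68.8 FPKM for SAHH-KO. Eif5a, described with elongation below, made up most of that gap: without it the sums were 3005, 3136 and 3095 FPKM in the controls and 2918, 2997 and 2929.8 in SAHH-KO, apart by a small margin. The elongation factor genes added up to 5801 ± 78.0 FPKM and 7995 ± 422 FPKM, of which Eef1a1 and Eef2 gave the larger share in every library. Most of the rise lay in these genes too. The mean of Eef1a1 went from 3865 to 5096 FPKM and that of Eef2 from 1326 to 2261 FPKM. The rise of the sum is therefore not a trend of the class by gene. As a share of all FPKM in a library, which does not depend on library scaling, initiation factors took 1.19 ± 0.0119% in control and 0.964 ± 0.0334% in SAHH-KO, and elongation factors 1.78 ± 0.0439% and 2.19 ± 0.0811%. Neither class overlapped between the groups on either scale.

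The 5 members that failed the filter were absent or scarce. Eef1a2, the muscle and neuron paralogue of Eef1a1, Eif4e1b, a germ-cell relative of eIF4E, and Eif5a2, a second eIF5A gene, had 0 reads in all 6 libraries. For these a count of 0 allows up to 0.0946, 0.0874 and 0.0392 FPKM per library. Eef1akmt3, an eEF1A lysine methyltransferase, reached at most 0.725 FPKM. Eif4ebp3, an eIF4E-binding protein gene, ran from 0.164 to 2.18 FPKM on 54 reads in all.

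The start regions of a few of these genes show what they have and do not have in common. Many mRNAs of the translation machinery are known as TOP mRNAs: they begin with a C followed by a run of pyrimidines, and LARP1 and mTOR signalling act through that tract. E-box letters, CACGTG, are bound by MYC and related factors. The windows run from 60 bases before to 25 after a RefSeq start (GRCm38.p6), 5′ to 3′ on the gene's strand, with the pyrimidine run near the start or the CACGTG in capitals. Eef2 and Eif3f are shown as rising members, Eif3l and Eif2s3x as falling members that also hold a tract, and Eif2b1, Eif3b and Eif1b as falling members without one near that start. In the deposited coordinates Eif1b (start 120492232) and Eif2s3x (minus strand, start 94212862) begin upstream of the windows shown. A tract was not looked for at those starts. Eif3f holds a CACGTG as well, with its first base at -68 from the start, just before its printed window.
Eef2 (chr10:81176571-81176655, + strand): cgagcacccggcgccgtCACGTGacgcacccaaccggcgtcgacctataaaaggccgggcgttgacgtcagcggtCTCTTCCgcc
Eif3f (chr7:108934355-108934439, + strand): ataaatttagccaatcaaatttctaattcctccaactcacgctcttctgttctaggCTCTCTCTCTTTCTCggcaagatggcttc
Eif3l (chr15:79075163-79075247, + strand): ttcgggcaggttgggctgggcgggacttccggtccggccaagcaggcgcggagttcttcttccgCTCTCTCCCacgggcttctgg
Eif2s3x (chrX:94212627-94212711, - strand): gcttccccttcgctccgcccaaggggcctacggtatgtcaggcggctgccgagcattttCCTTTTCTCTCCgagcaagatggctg
Eif2b1 (chr5:124579107-124579191, - strand): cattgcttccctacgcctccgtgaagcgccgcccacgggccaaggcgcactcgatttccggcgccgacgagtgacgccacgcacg
Eif3b (chr5:140419245-140419329, + strand): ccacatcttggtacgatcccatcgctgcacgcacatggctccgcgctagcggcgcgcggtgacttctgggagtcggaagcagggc
Eif1b (chr9:120492546-120492630, + strand): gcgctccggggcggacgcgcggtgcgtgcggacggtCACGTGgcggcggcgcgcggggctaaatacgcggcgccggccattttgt

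A tract was thus found both in members that rose and in members that fell. In windows of 250 bases before to 50 after the start, which matched 49 of the 64 members, the tract (a C followed by at least 5 pyrimidines on the gene's strand, beginning within 20 bases of the start) occurred in 19 members, 38.8%, and in 35.3% of the tested genes in the same table. It was present in 4 of 8 members that rose, 5 of 20 that fell and 9 of 19 that did not pass. On the opposite strand the same letters occurred in 19 members as well, 38.8%, and in 40.2% of the tested genes. They were in 7 of 8 that rose, 4 of 20 that fell and 7 of 19 that did not pass. That split by direction was wider than the one on the gene's strand. CACGTG, which reads the same on both strands, lay in 13 of the 49 members, 26.5%, in 12.5% of tested genes and in 8.09% of all genes in the table. By direction it was in 3 of 8, 5 of 20 and 4 of 19. Eef2k, which was tested only through its SAHH-KO values, is among the 8 and among the 3. Several genes have more than 1 listed start, and each counts once if any of its windows holds the letters. The 8 members that rose had 14 windows and the 20 that fell had 25, so the former had more windows per gene. These matches describe letters and not bound sites.

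Elongation came first by level. Eef1a1, which brings aminoacyl-tRNA to the ribosome and was the most abundant member, read 3737, 4013 and 3846 FPKM in the controls and 5376, 4868 and 5046 in the SAHH-KO libraries. All SAHH-KO libraries lay above all controls, a ratio of means of 1.32 (log2 fold change 0.40, SE 0.0735, limma adjusted p = 0.00220). The Eef1a1 call did not hold in every setting, with an adjusted p of 0.240 with no filter on low values. Of the stretches of 50 bases in Eef1a1 transcripts, called words here, 40.4% recur in other genes, mainly processed pseudogenes such as Gm13456, which was itself counted at 20.4 ± 1.37 and 29.9 ± 3.32 FPKM (log2 fold change 0.53, limma adjusted p = 0.00257), so reads of the gene and its copies cannot be separated with certainty. Eef2, the translocase, read 1575, 1161 and 1241 FPKM in the controls and 2413, 2089.9 and 2279 in the SAHH-KO libraries. Control replicate 1 was the highest control, and the lowest SAHH-KO library still lay above it (log2 fold change 0.78, SE 0.1202, limma adjusted p = 0.000853). Its means were 1326 ± 219.9 in the controls and 2261 ± 162 FPKM in SAHH-KO (SD, n = 3). Eef1a1 is gene ENSMUSG00000037742 (GRCm38, chromosome 9, 78478449 to 78489151, minus strand) and Eef2 is gene ENSMUSG00000034994 (GRCm38, chromosome 10, 81176631 to 81182498, plus strand).

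Eef2k encodes the kinase that inhibits eEF2. It read 0.919, 0.725 and 0.695 FPKM in the controls and 2.39, 1.79 and 1.89 in the SAHH-KO libraries. It passed the filter through the SAHH-KO libraries alone, since every control was below 1 FPKM, so a difference was built into its being tested and its p is not given. The ratio of means was 2.60, on 88 to 295 reads per library, and the groups did not overlap.

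The exchange factor that recharges eEF1A with GTP, eEF1B, gave mixed values. Eef1d, its δ subunit, read 28.3, 27.6 and 31.1 FPKM in the controls and 21.2, 20.7 and 21.5 in the SAHH-KO libraries. Groups were apart, with SAHH-KO lower (log2 fold change -0.44, SE 0.0777, limma adjusted p = 0.00180). Eef1b2, the α subunit, read 152, 196 and 184 FPKM in the controls and 208, 205 and 201 in the SAHH-KO libraries, apart but without passing the test (limma adjusted p = 0.105). Eef1g, the γ subunit, read 290.4, 310.2 and 313 FPKM in the controls and 342, 331 and 319.8 in the SAHH-KO libraries, also apart and also short of the test (limma adjusted p = 0.190). Of Eef1g words 44.2% recur elsewhere, most in the pseudogene Gm4366, which was counted at 253 and 272 FPKM. Eef1e1, a scaffold protein of the multi-tRNA synthetase complex, read 34.03, 43.8 and 42.1 FPKM in the controls and 30.3, 30.7 and 30.9 in the SAHH-KO libraries. Its groups were apart, SAHH-KO lower (log2 fold change -0.37, SE 0.102, limma adjusted p = 0.0162). Its adjusted p moved above the threshold, to 0.0659 without control replicate 3, 0.0505 without SAHH-KO replicate 1 and 0.0501 without SAHH-KO replicate 3. The ratio of Eef1a1 to Eef1d FPKM rose within libraries from 134 ± 10.9 to 242 ± 10.9, a description of a pair picked after its values were seen.

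Eif5a encodes a factor that relieves stalled ribosomes and aids termination, and it is known as the protein carrying hypusine. It read 769, 768 and 838 FPKM in the controls and 533, 588 and 564 in the SAHH-KO libraries. The highest SAHH-KO library lay well below the lowest control (log2 fold change -0.49, SE 0.0758, limma adjusted p = 0.00083). Its mean fell by 29.0% while that of Eef2 rose, so that the within-library Eef2 to Eif5a ratio was 2.05, 1.51 and 1.48 in control and 4.53, 3.55 and 4.04 in SAHH-KO. Eif5a is gene ENSMUSG00000078812 (GRCm38, chromosome 11, 69916714 to 69921958, minus strand). Of the enzymes that make hypusine, Dhps fell from 19.2 FPKM to 15.1 (log2 fold change -0.33, limma adjusted p = 0.00624), and Dohh lay at 15.3 and 14.8 FPKM (adjusted p = 0.963). Dph2, Dph3 and Dnajc24 of the pathway that places diphthamide on eEF2 fell, each to 64.4% to 67.4% of the control mean, and Dph1, Dph5, Dph6 and Dph7 did not pass, although Dph1 passed as lower with assigned-read scaling (0.0461).

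**Figure D2:**
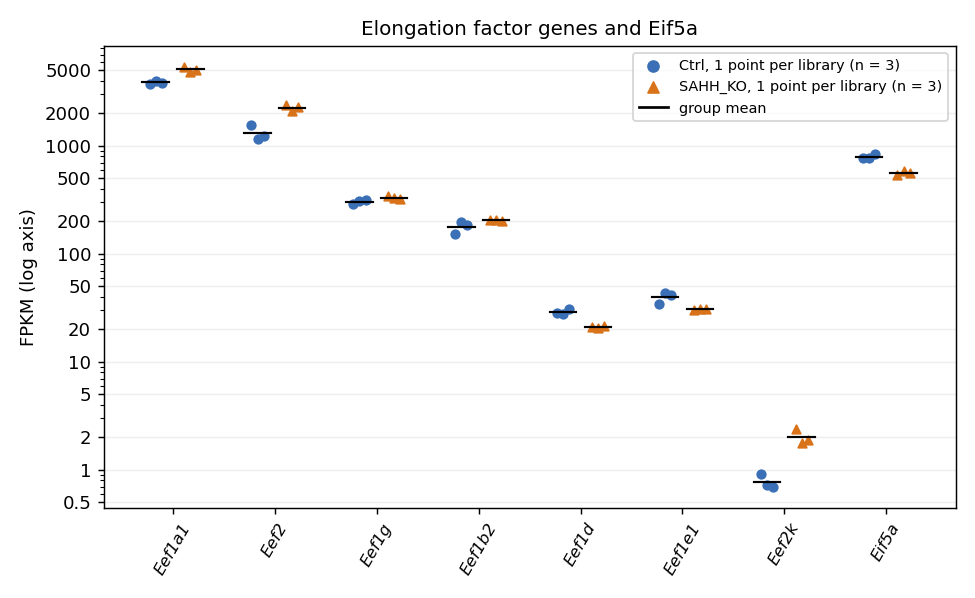
FPKM (log axis) of elongation factor genes and Eif5a, 1 point per library, 3 control and 3 SAHH-KO libraries, with the group mean as a line. Eef1a1, Eef2 and Eef2k lie higher in SAHH-KO in every library, and Eef1d, Eef1e1 and Eif5a lower. Eef1b2 and Eef1g also lie higher in every SAHH-KO library but did not pass the test.

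Enzymes that methylate elongation factors use S-adenosylmethionine, whose product S-adenosylhomocysteine is the substrate of SAHH. Eef1akmt1, an eEF1A lysine methyltransferase, read 22.8, 24.7 and 24.9 FPKM in the controls and 15.6, 21.3 and 18.9 in the SAHH-KO libraries. It was lower in SAHH-KO without overlap (log2 fold change -0.37, SE 0.113, limma adjusted p = 0.0247). For Eef1akmt1 the adjusted p became 0.0705 with no filter on low values, 0.0583 without control replicate 2, 0.0793 without control replicate 3, 0.0720 without SAHH-KO replicate 1 and 0.0591 without SAHH-KO replicate 3. Eef1akmt2, Eef1akmt4 and Eef2kmt had ratios of means between 0.856 and 0.917, overlapping groups and adjusted p between 0.0978 and 0.277. They passed as lower with TPM scaling (0.0208, 0.0117 and 0.0237) and with assigned-read scaling (0.0240, 0.0129 and 0.0277). Eefsec, the factor for selenocysteine-tRNA, lay at 7.002 ± 0.181 and 6.23 ± 0.501 FPKM (limma adjusted p = 0.176, and 0.0168 and 0.0171 with those scalings). These mRNA levels say nothing of methylation of the proteins.

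Most start-codon selection genes fell in SAHH-KO. Of 5 tested eIF1 and eIF1A genes 4 fell, where 26.8% of all tested genes did, with a median of -0.41 over the 5. Eif1b, a close relative of eIF1, read 20.01, 24.95 and 23.6 FPKM in the controls and 10.6, 12.97 and 12.5 in the SAHH-KO libraries. Every SAHH-KO library was below every control by a wide gap, and the mean fell by 47.3% (log2 fold change -0.87, SE 0.1099, limma adjusted p = 0.000296). Eif1b is gene ENSMUSG00000006941 (GRCm38, chromosome 9, 120492232 to 120495330, plus strand). Eif1ax, the X-linked eIF1A, read 17.1, 21.2 and 20.2 FPKM in the controls and 13.3, 14.6 and 12.5 in the SAHH-KO libraries, apart and lower in SAHH-KO (log2 fold change -0.50, SE 0.103, limma adjusted p = 0.00403). Eif1a, the autosomal copy, read 69.6, 94.1 and 81.9 FPKM in the controls and 55.3, 70.7 and 57.5 in the SAHH-KO libraries. SAHH-KO replicate 2 lay above control replicate 1, so its groups overlapped although it passed (log2 fold change -0.41, SE 0.132, limma adjusted p = 0.0287). Eif1a missed the threshold in some settings, at an adjusted p of 0.0950 with no filter on low values, 0.0789 without control replicate 2, 0.0754 without control replicate 3, 0.10 without SAHH-KO replicate 1 and 0.0920 without SAHH-KO replicate 3. Eif1, which guards start-codon accuracy and was the most abundant of the group, read 167, 182 and 191 FPKM in the controls and 138, 167 and 149 in the SAHH-KO libraries, apart by a small gap (log2 fold change -0.25, SE 0.0928, limma adjusted p = 0.0490). The Eif1 call did not hold in every setting, with an adjusted p of 0.109 with no filter on low values, 0.0638 without the intensity trend, 0.0850 without control replicate 2, 0.164 without control replicate 3, 0.157 without SAHH-KO replicate 1 and 0.141 without SAHH-KO replicate 3. Eif1ad, an eIF1A-domain protein, lay at 39.2 and 36.7 FPKM with overlap (limma adjusted p = 0.372, and 0.0428 and 0.0421 with TPM and assigned-read scaling).

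The eIF2 trimer did not move as a unit. Eif2s1 encodes eIF2α, the subunit whose phosphorylation stops initiation, and read 37.6, 56.6 and 49.8 FPKM in the controls and 30.9, 34.8 and 32.7 in the SAHH-KO libraries. All SAHH-KO libraries were lower, with control replicate 1 nearest to them (log2 fold change -0.52, SE 0.1403, limma adjusted p = 0.0142). Its adjusted p moved above the threshold, to 0.0599 with no filter on low values, 0.0513 without control replicate 3 and 0.0530 without SAHH-KO replicate 1. Eif2s3x, the X-linked eIF2γ that binds GTP and tRNA, read 48.1, 53.4 and 52.1 FPKM in the controls and 38.1, 40.3 and 39.7 in the SAHH-KO libraries, apart and lower (log2 fold change -0.37, SE 0.0755, limma adjusted p = 0.00371), with 34.6% of its words shared with the pseudogene Gm2223. Eif2s3y, the Y-linked γ gene, read 9.94, 15.3 and 13.04 FPKM in the controls and 16.6, 14.2 and 15.1 in the SAHH-KO libraries, overlapping (limma adjusted p = 0.152). Eif2s2, eIF2β, read 26.6, 42.9 and 35.8 FPKM in the controls and 40.6, 43.9 and 41.6 in the SAHH-KO libraries, overlapping because of control replicate 2 (limma adjusted p = 0.158). Both genes passed without that library, with adjusted p of 0.0348 for Eif2s3y and 0.0252 for Eif2s2. The Eif2s2 to Eif2s1 ratio varied little inside each group, at 0.709, 0.758 and 0.720 in control and 1.31, 1.26 and 1.27 in SAHH-KO.

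The 5 subunits of eIF2B, the exchange factor that reloads eIF2, split. Eif2b1, the α subunit of the regulatory part that senses phosphorylated eIF2, read 24.8, 24.7 and 25.2 FPKM in the controls and 9.898, 13.3 and 11.5 in the SAHH-KO libraries. Controls lay within 1 FPKM of each other and every SAHH-KO library was far below them (log2 fold change -1.05, SE 0.105, limma adjusted p = 8.34e-05). The mean was 46.4% of control, the largest relative fall among tested members. Eif2b1 is gene ENSMUSG00000029388 (GRCm38, chromosome 5, 124570213 to 124579131, minus strand). Eif2b4, the δ subunit of the same regulatory part, read 18.2, 17.96 and 19.1 FPKM in the controls and 10.9, 11.4 and 11.9 in the SAHH-KO libraries, without overlap (log2 fold change -0.65, SE 0.0764, limma adjusted p = 0.000201). Eif2b5, the catalytic ε subunit, read 37.8, 43.01 and 40.1 FPKM in the controls and 27.5, 31.3 and 31.7 in the SAHH-KO libraries, also without overlap (log2 fold change -0.41, SE 0.0887, limma adjusted p = 0.00515). Eif2b2, the β regulatory subunit, read 30.3, 21.5 and 25.4 FPKM in the controls and 32.5, 30.1 and 32.6 in the SAHH-KO libraries, with control replicate 1 just above the lowest SAHH-KO library (log2 fold change 0.31, limma adjusted p = 0.0586). It passed with the block of replicate numbers (0.0341), with the minimum of 5 FPKM (0.0494), with voom, limma's weighting for counts, on reads recovered from the FPKM (0.0400) and without control replicate 1 (0.00587). Eif2b3, the γ subunit, lay at 8.92 and 8.83 FPKM (limma adjusted p = 0.908). The Eif2b2 to Eif2b1 ratio was 1.22, 0.870 and 1.00 in control and 3.29, 2.26 and 2.83 in SAHH-KO. Eif2a and Eif2d, which can place tRNA without eIF2, both fell. Eif2d read 5.101, 5.06 and 5.26 FPKM in the controls and 3.66, 3.29 and 3.37 in the SAHH-KO libraries (log2 fold change -0.47, SE 0.0819, limma adjusted p = 0.00165), and Eif2a read 9.78, 13.6 and 11.96 FPKM in the controls and 8.81, 9.51 and 9.34 in the SAHH-KO libraries (log2 fold change -0.31, SE 0.116, limma adjusted p = 0.0496). For Eif2a the adjusted p became 0.0502 with a pseudocount of 0.1, 0.122 with no filter on low values, 0.0540 without the intensity trend, 0.125 without control replicate 2, 0.130 without control replicate 3, 0.134 without SAHH-KO replicate 1, 0.0844 without SAHH-KO replicate 2 and 0.107 without SAHH-KO replicate 3.

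**Figure D3:**
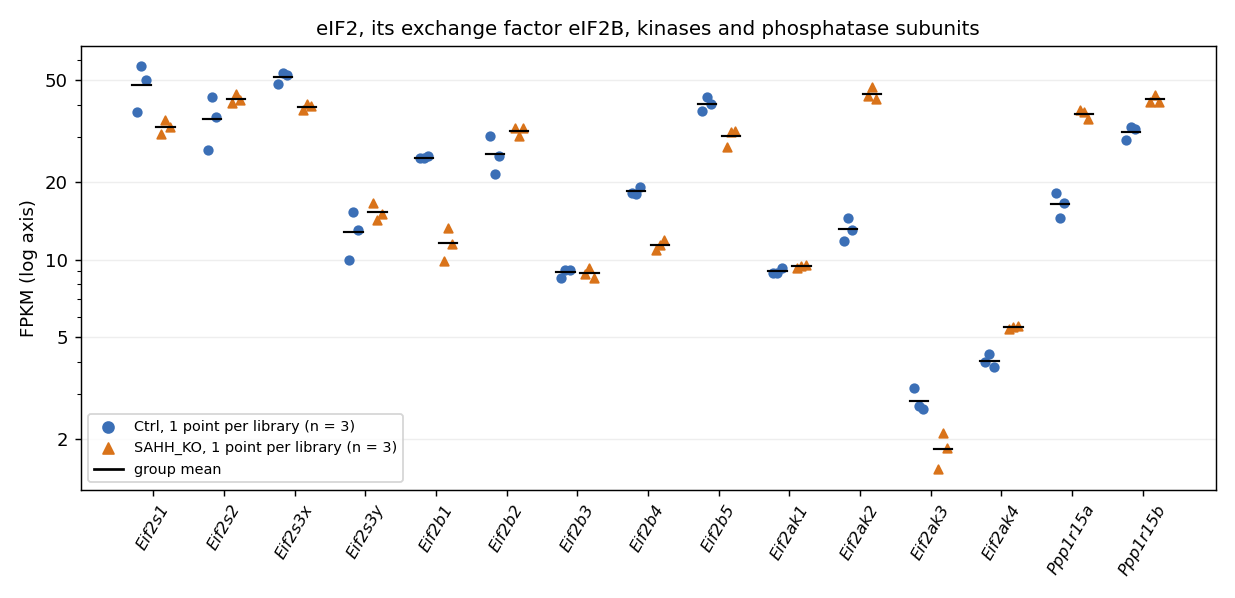
FPKM (log axis) of eIF2 and eIF2B subunit genes with the eIF2α kinases, Ppp1r15a and Ppp1r15b, 1 point per library, with the group mean as a line. Eif2b1 and Eif2b4 lie lower in every SAHH-KO library while Eif2ak2 and Ppp1r15a lie higher. Eif2s1, Eif2s3x, Eif2b5 and Eif2ak3 also lie lower in all of them, and Eif2ak4, Ppp1r15b and, barely, Eif2ak1 higher.

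Genes that act on eIF2 outside the rule changed in several directions. Eif2ak2, the interferon-inducible kinase PKR, read 11.8, 14.5 and 13.1 FPKM in the controls and 43.2, 47.1 and 42.2 in the SAHH-KO libraries. Its lowest SAHH-KO library was over all controls, a ratio of means of 3.36 (log2 fold change 1.68, SE 0.0942, limma adjusted p = 4.02e-06). Ppp1r15a, the inducible phosphatase subunit GADD34 that reverses eIF2α phosphorylation, read 18.2, 14.5 and 16.6 FPKM in the controls and 38.1, 37.6 and 35.2 in the SAHH-KO libraries, apart and higher (log2 fold change 1.13, SE 0.09499, limma adjusted p = 3.19e-05). The constitutive subunit Ppp1r15b rose as well, from 31.4 to 42.0 FPKM (adjusted p = 0.00275). Eif2ak3, the endoplasmic reticulum stress kinase PERK, fell from 2.82 FPKM to 1.83 (log2 fold change -0.44, limma adjusted p = 0.0111). Eif2ak4, the amino-acid sensor GCN2, rose from 4.05 to 5.46 FPKM (log2 fold change 0.36, limma adjusted p = 0.00642). Eif2ak1, the haem-regulated kinase, lay at 8.999 and 9.43 FPKM (adjusted p = 0.516). So of 4 kinase genes 2 rose, 1 fell and 1 did not pass.

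eIF3, the largest initiation factor, holds the small subunit and the mRNA. All 14 of its genes were tested: 3 rose, 4 fell and 7 did not pass, with a median of 0.05, or 0.11 for the 12 without Eif3j1 and Eif3j2. Those are 21.4% higher and 28.6% lower, near the 26.4% and 26.8% of all tested genes. Eif3c, a core subunit that contacts eIF1 and eIF5, read 153, 153 and 142 FPKM in the controls and 283, 255 and 266 in the SAHH-KO libraries. The lowest SAHH-KO library lay far above the highest control, and the ratio of means was 1.79 (log2 fold change 0.84, SE 0.0758, limma adjusted p = 4.83e-05). Eif3f, a subunit of the PCI and MPN octamer, read 69.7, 69.1 and 63.8 FPKM in the controls and 124, 104 and 106 in the SAHH-KO libraries, again far apart (log2 fold change 0.71, SE 0.08995, limma adjusted p = 0.000299). Eif3h, its MPN partner, read 154, 180.4 and 173 FPKM in the controls and 217, 193 and 202 in the SAHH-KO libraries, apart by a smaller gap (log2 fold change 0.27, SE 0.0869, limma adjusted p = 0.0288). Eif3h missed the threshold in some settings, at an adjusted p of 0.0674 with no filter on low values, 0.277 with TPM scaling, 0.295 with assigned-read scaling, 0.0517 with the replicate block, 0.0508 without control replicate 1, 0.0637 without control replicate 3, 0.0971 without SAHH-KO replicate 1 and 0.0868 without SAHH-KO replicate 3. These 3 were the eIF3 genes that rose. Eif3c is gene ENSMUSG00000030738 (GRCm38, chromosome 7, 126546455 to 126566411, minus strand), and Eif3f is gene ENSMUSG00000031029 (GRCm38, chromosome 7, 108934417 to 108942951, plus strand).

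Among the falling eIF3 genes, Eif3b, the scaffold that joins eIF3g and eIF3i, read 203, 167 and 184 FPKM in the controls and 134, 147 and 143 in the SAHH-KO libraries. Control replicate 1 was high and control replicate 2 low, and SAHH-KO lay below all of them (log2 fold change -0.38, SE 0.0903, limma adjusted p = 0.00790). Eif3b is gene ENSMUSG00000056076 (GRCm38, chromosome 5, 140419328 to 140443360, plus strand). Eif3l, an outer subunit, read 70.3, 73.4 and 63.7 FPKM in the controls and 50.9, 53.2 and 52.3 in the SAHH-KO libraries, without overlap (log2 fold change -0.40, SE 0.0791, limma adjusted p = 0.00319). Eif3j1, the loosely held eIF3j that also helps in recycling, read 9.996, 13.5 and 9.68 FPKM in the controls and 6.04, 8.05 and 6.75 in the SAHH-KO libraries, without overlap (log2 fold change -0.60, SE 0.142, limma adjusted p = 0.00792). Its near copy Eif3j2 read 12.1, 19.3 and 22.1 FPKM in the controls and 12.5, 11.1 and 8.44 in the SAHH-KO libraries, with control replicate 1 under SAHH-KO replicate 1 (log2 fold change -0.67, SE 0.214, limma adjusted p = 0.0285). The Eif3j2 call did not hold in every setting, with an adjusted p of 0.114 with no filter on low values, 0.0861 without control replicate 2, 0.0977 without control replicate 3, 0.0518 without SAHH-KO replicate 2 and 0.0917 without SAHH-KO replicate 3. Since 50.9% of Eif3j1 words and 91.8% of Eif3j2 words recur in other genes, chiefly in each other, the split of reads between this pair is uncertain.

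The other subunits stayed closer to control. Eif3d, which can bind the cap itself, lay at 36.95 ± 2.74 in the controls and 42.8 ± 0.448 FPKM in SAHH-KO (SD, n = 3) without overlap (limma adjusted p = 0.0529), and 37.2% of its words are shared with an antisense gene, Gm17638. Eif3g and Eif3k lay at 1.14 and 1.12 times control without overlap (adjusted p = 0.0999 and 0.0971). Eif3a, the largest subunit, Eif3i, Eif3e and Eif3m overlapped, with ratios between 0.968 and 1.03 and adjusted p of at least 0.611. Eif3a passed as lower with assigned-read scaling (0.0443). In Eif3e and Eif3m control replicate 1 was far below the other controls, at 24.9 against 38.5 and 35.1 FPKM and at 36.2 against 53.2 and 47.0 FPKM. The directions of Eif3e, Eif3i and Eif3m turn with the library scaling. Summed over all eIF3 genes the level was 1119 ± 0.711 FPKM for the controls and 1267 ± 31.6 FPKM for SAHH-KO, and as a share of a library's FPKM it was 0.344% and 0.348%, overlapping. Within that total the Eif3c to Eif3b ratio was 0.752, 0.917 and 0.772 in control and 2.11, 1.73 and 1.85 in SAHH-KO.

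**Figure D4:**
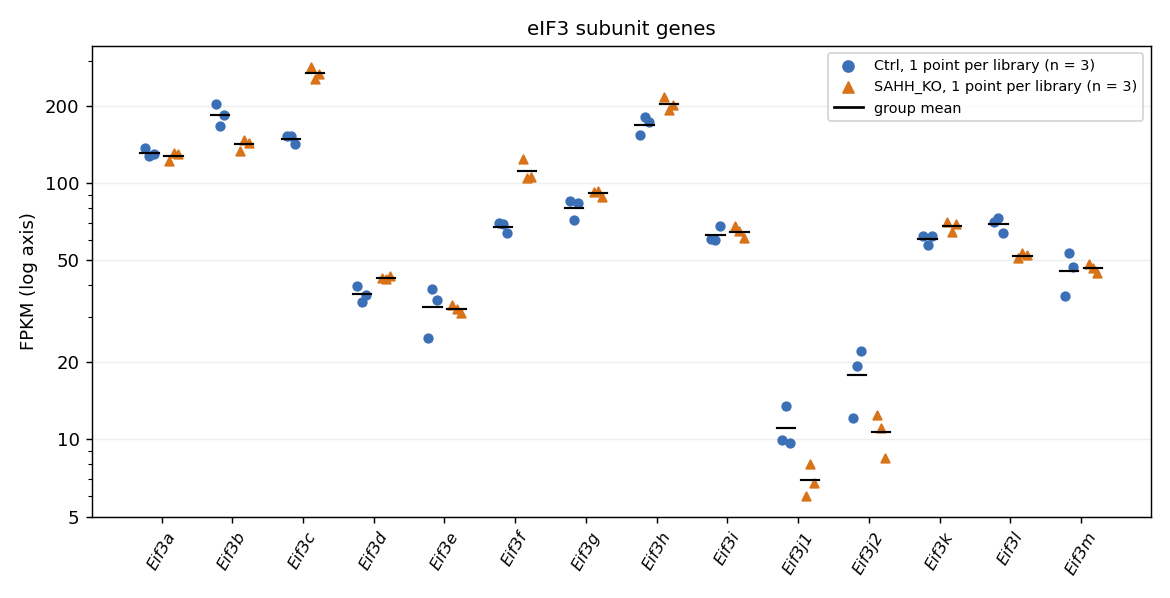
FPKM (log axis) of the 14 eIF3 subunit genes, 1 point per library, 3 control and 3 SAHH-KO libraries, with the group mean as a line. Eif3c and Eif3f lie higher in every SAHH-KO library, and Eif3b, Eif3j1 and Eif3l lower. Eif3d, Eif3g, Eif3h and Eif3k also lie higher in all of them, by smaller gaps, and of these only Eif3h passed the test.

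Among the genes of cap recognition and mRNA loading, the main helicase and scaffold fell and their less abundant paralogues rose. Eif4a1, the main eIF4A helicase, read 383, 402 and 392.2 FPKM in the controls and 313, 330.4 and 316 in the SAHH-KO libraries. It was lower in all SAHH-KO libraries (log2 fold change -0.29, SE 0.0677, limma adjusted p = 0.00665). Eif4a2, the paralogue, read 21.4, 28.8 and 24.4 FPKM in the controls and 37.5, 34.3 and 35.0 in the SAHH-KO libraries, higher in all of them (log2 fold change 0.51, SE 0.1101, limma adjusted p = 0.00503). Eif4a1 shares 28.4% of its words with other genes, mostly the pseudogene Eif4a-ps4, which was counted at 305 and 254 FPKM and fell as well (log2 fold change -0.26, limma adjusted p = 0.0241). Eif4a3, a helicase of the exon junction complex rather than of eIF4F, read 88.4, 83.9 and 82.1 FPKM in the controls and 68.7, 72.2 and 69.3 in the SAHH-KO libraries, lower without overlap (log2 fold change -0.27, SE 0.07096, limma adjusted p = 0.0122). Its adjusted p moved above the threshold, to 0.0652 without SAHH-KO replicate 3.

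Among the eIF4G scaffolds the same split was seen. Eif4g1, the main scaffold, read 163, 138 and 141 FPKM in the controls and 109, 118 and 119 in the SAHH-KO libraries, without overlap (log2 fold change -0.34, SE 0.0884, limma adjusted p = 0.0111). Eif4g2, known as DAP5 and lacking the eIF4E-binding part, read 174, 224 and 191 FPKM in the controls and 134, 160.2 and 148 in the SAHH-KO libraries, without overlap (log2 fold change -0.41, SE 0.111, limma adjusted p = 0.0147). For Eif4g2 the adjusted p became 0.0558 with no filter on low values and 0.0566 without SAHH-KO replicate 1. Eif4g3, the minor scaffold, read 21.3, 16.5 and 16.9 FPKM in the controls and 22.3, 23.7 and 24.3 in the SAHH-KO libraries, higher without overlap (log2 fold change 0.36, SE 0.107, limma adjusted p = 0.0221). Eif4g3 missed the threshold in some settings, at an adjusted p of 0.0600 with no filter on low values, 0.172 with TPM scaling, 0.145 with assigned-read scaling, 0.0587 without control replicate 2, 0.0845 without control replicate 3, 0.0604 without SAHH-KO replicate 2 and 0.0795 without SAHH-KO replicate 3. Within libraries the Eif4a2 to Eif4a1 ratio went from 0.0633 ± 0.00788 to 0.111 ± 0.00807 and the Eif4g3 to Eif4g1 ratio from 0.123 ± 0.00606 to 0.203 ± 0.00194. Such ratios do not depend on how libraries are scaled, but these pairs, like the others given, were chosen after their values were seen, 7 in all, and none was tested.

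The cap-binding gene Eif4e lay at 41.2 ± 6.59 in the controls and 33.6 ± 1.16 FPKM in SAHH-KO (SD, n = 3), overlapping because control replicate 1 was low (limma adjusted p = 0.0787, with 0.00250 without that library, 0.0490 by voom on recovered reads, 0.0112 with TPM scaling and 0.0141 with assigned-read scaling). Eif4e2, the repressive cap-binding relative, and Eif4e3 lay at 0.910 and 0.825 times control (adjusted p = 0.178 and 0.0848), and both passed as lower with TPM scaling (0.0152 and 0.0131) and assigned-read scaling (0.0145 and 0.0158). Eif4h, a helicase cofactor, read 81.1, 71.9 and 79.6 FPKM in the controls and 62.2, 65.0 and 64.9 in the SAHH-KO libraries, lower without overlap (log2 fold change -0.27, SE 0.07705, limma adjusted p = 0.0178). The Eif4h call did not hold in every setting, with an adjusted p of 0.0734 without control replicate 3, 0.0607 without SAHH-KO replicate 1 and 0.0637 without SAHH-KO replicate 3. Eif4b, the other cofactor, lay at 109 and 114 FPKM (limma adjusted p = 0.446). The eIF4F and cofactor genes summed to 1031 ± 23.9 FPKM for the controls and 876 ± 26.4 FPKM for SAHH-KO.

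The mRNAs of proteins that hold eIF4E back did not all move in the same direction. Eif4ebp2, a 4E-BP released by mTOR phosphorylation, read 14.1, 13.5 and 14.2 FPKM in the controls and 7.95, 8.63 and 9.73 in the SAHH-KO libraries, lower without overlap (log2 fold change -0.62, SE 0.0898, limma adjusted p = 0.00064). Eif4enif1, the eIF4E transporter, read 9.52, 9.68 and 9.09 FPKM in the controls and 11.8, 11.5 and 10.5 in the SAHH-KO libraries, higher without overlap (log2 fold change 0.23, SE 0.0798, limma adjusted p = 0.0364). Its adjusted p moved above the threshold, to 0.386 with TPM scaling, 0.367 with assigned-read scaling, 0.131 without control replicate 3, 0.111 without SAHH-KO replicate 1, 0.106 without SAHH-KO replicate 2 and 0.0592 without SAHH-KO replicate 3. Eif4ebp1, outside the rule, read 58.3, 46.2 and 55.7 FPKM in the controls and 111, 99.8 and 113 in the SAHH-KO libraries, a ratio of means of 2.02 (log2 fold change 1.01, SE 0.103, limma adjusted p = 9.49e-05). The kinases that phosphorylate eIF4E went in opposite directions: Mknk1 read 9.16, 8.76 and 9.19 FPKM in the controls and 14.4, 12.2 and 13.4 in the SAHH-KO libraries (log2 fold change 0.51, SE 0.0854, limma adjusted p = 0.00133), and Mknk2 read 21.0, 14.5 and 17.9 FPKM in the controls and 7.69, 8.31 and 7.78 in the SAHH-KO libraries (log2 fold change -1.06, SE 0.126, limma adjusted p = 0.000206). Both pairs of groups were free of overlap.

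**Figure D5:**
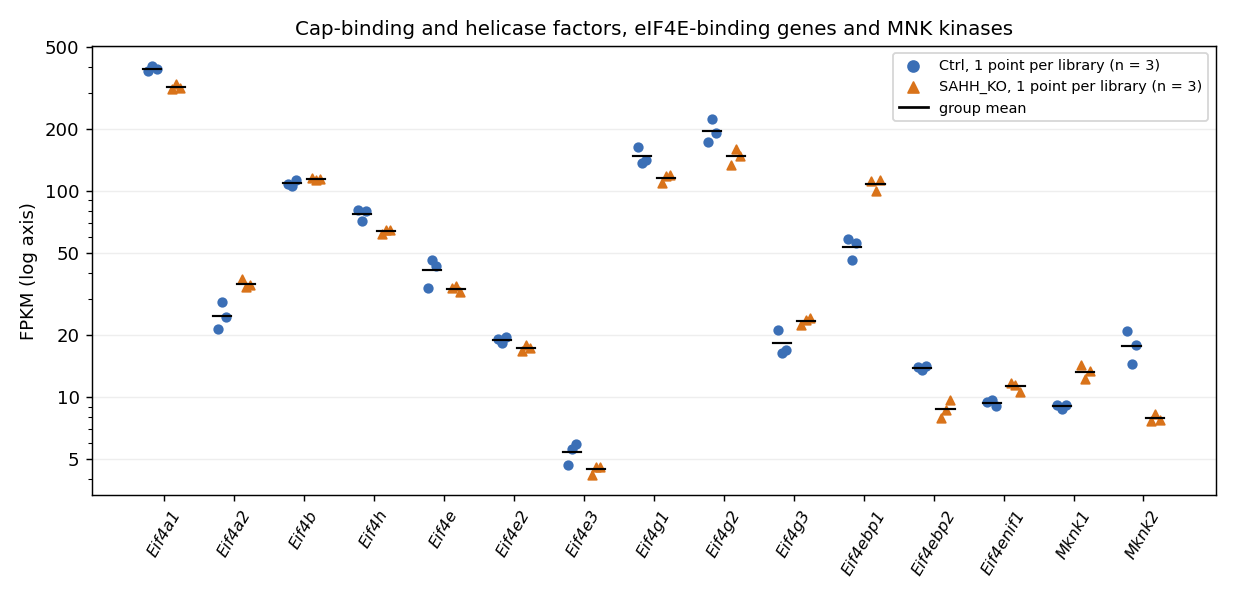
FPKM (log axis) of eIF4F genes, cofactors, eIF4E-binding genes and the MNK kinases, 1 point per library, with the group mean as a line. Eif4a1, Eif4g1, Eif4g2, Eif4ebp2 and Mknk2 lie lower and Eif4a2, Eif4g3, Eif4ebp1 and Mknk1 higher in every SAHH-KO library. Eif4h, Eif4e2 and Eif4e3 also lie lower in all of them, and Eif4enif1 higher.

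None of the 3 genes of subunit joining passed. Eif5, the GTPase activator of eIF2, lay at 58.8 ± 10.9 in the controls and 50.5 ± 3.05 FPKM in SAHH-KO (SD, n = 3) (limma adjusted p = 0.219). Eif5b, the joining GTPase, lay at 17.5 and 16.9 FPKM (limma adjusted p = 0.668). Eif6, which keeps free large subunits from joining small ones, lay at 118 and 136 FPKM without overlap (limma adjusted p = 0.101). At an unadjusted p under 0.05 the count was also 0, and voom on recovered reads called 0 of the 3. Eif5 passed as lower with TPM scaling (0.0396), with assigned-read scaling (0.0438) and without control replicate 1 (0.0232), and Eif6 as higher without that library (0.0289).

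Of 45 regulators and partners outside the rule, chosen by function, 43 were tested, 11 were higher and 14 lower, with a median of -0.04. Those are 25.6% and 32.6% of the tested regulators, near the 26.4% and 26.8% of all tested genes. Pdcd4, an inhibitor of eIF4A, was under the filter, and Gspt2, a release factor gene, had 0 reads. Regulators other than the 10 with the smallest p, Eif2ak3 and Eif2ak4 were picked for naming after their values were seen. Larp1, the TOP mRNA-binding protein, read 79.3, 64.5 and 63.1 FPKM in the controls and 110.3, 109.9 and 114 in the SAHH-KO libraries, higher without overlap (log2 fold change 0.69, SE 0.0982, limma adjusted p = 0.000552). Mtor rose from 9.57 to 13.95 FPKM (adjusted p = 0.00381) and Rps6kb2 from 5.95 to 7.29 FPKM (adjusted p = 0.0296). Rptor, Tsc1, Tsc2, Rheb and Rps6kb1 did not pass. The Rps6kb2 call was lost with TPM scaling (0.280), assigned-read scaling (0.258) and voom (0.0540). Leaving out any library other than control replicate 1 also lost it, at 0.0611 to 0.106. Tsc1 and Rps6kb1 passed as lower with TPM scaling (0.0181 and 0.0103) and assigned-read scaling (0.0162 and 0.0118), and Rps6kb1 also by voom (0.0352), with the replicate block (0.0464) and without control replicate 1 (0.0139). Pabpc4, a poly(A)-binding protein, went down from a mean of 64.3 to 38.5 FPKM (log2 fold change -0.73, SE 0.103, limma adjusted p = 0.000566), and Paip2b, which inhibits such proteins, from 4.56 to 2.66 (log2 fold change -0.60, SE 0.10, limma adjusted p = 0.00125). Pabpc1, the main family member, lay at 306 and 355 FPKM (log2 fold change 0.21, adjusted p = 0.0365). With TPM and assigned-read scaling its fold change was 0.05 and 0.05 (adjusted p = 0.582 and 0.547). Its adjusted p was 0.0759 with no filter, 0.0553 without the intensity trend, 0.0503 with the replicate block, 0.148 without control replicate 3, and 0.0940, 0.0856 and 0.117 without SAHH-KO replicates 1, 2 and 3. Bzw1, an eIF5 mimic that competes in start-codon selection, went down from a mean of 97.1 to 50.7 FPKM (log2 fold change -0.92, SE 0.158, limma adjusted p = 0.00156). Ddx3x, an X-linked helicase that helps initiation on structured leaders, went down from a mean of 128 to 82.3 FPKM (log2 fold change -0.63, SE 0.114, limma adjusted p = 0.00196). Abce1, which recycles ribosomes, and Etf1, the release factor, fell to 64.8% and 73.3% of control (adjusted p = 0.00475 and 0.0191). Etf1 missed the threshold with no filter (0.0719), without control replicate 3 (0.0608) and without SAHH-KO replicate 1 (0.0669) or 3 (0.0562).

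Some members widely known as TOP mRNAs, Eef1a1, Eef1b2, Eef1d, Eef1g, Eef2, Eif3e, Eif3f and Eif3h, are given as counts only. They were set together after their values had been seen and are not a full list. Of these 8, 4 rose, 1 fell and 3 did not pass, with a median of 0.24 on the log2 scale. That is 50% higher and 12.5% lower. Over all tested genes the shares were 26.4% and 26.8%, and over the tested members 15.3% and 42.4%. Because the 8 were picked with their values known, these shares say nothing of TOP mRNAs as a class. Among members with a pyrimidine tract near a listed start, 4 rose, 5 fell and 9 did not pass. Eif3h, among the 4, lost its call with TPM scaling (adjusted p = 0.277). The member that fell was Eef1d and those that did not pass were Eef1b2, Eef1g and Eif3e.

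Control replicate 1 was the lowest control for 31 of the 59 tested members, 52.5%, against 39.3% of all tested genes. Leaving it out gave 12 members higher and 29 lower. Without it Eif2b2, Eif3d and Eif3g passed with positive fold changes (adjusted p = 0.00587, 0.0132 and 0.0445) as did Eif6 (0.0289). With negative ones the same held for Eif4e (0.00250), Eif4e3 (0.0177), Eif5 (0.0232) and Eef1akmt4 (0.0448), while Eif3h no longer passed (0.0508). Without control replicate 2, Eef1b2 (0.0367), Eif2s2 and Eif2s3y passed as higher. Across all 14 alternatives, 19 of the 34 members called kept their call, among them Eef2, Eif3c, Eif3f, Eif5a, Eif1b and all called eIF2B genes. Eef2k was not tested at the minimum of 5 FPKM.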

How the data were processed

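The authors deposited FPKM values of 54532 genes in 6 libraries, with Ensembl identifiers, coordinates and gene lengths. Libraries came from a SMARTer mRNA kit and 1.3 µg of RNA, per the labels' protocols. STAR, featureCounts, FastQC and Trim Galore are listed without versions or settings in the submitters' processing notes, with GRCm38 and mm10 as builds. Strand use in counting is not given there. FPKM times gene length gave whole multiples of 1 step in every library (100% within 0.01 of a read), from which reads per gene and the library size used were recovered. Divided by the assigned reads, that size averaged 1.06 for the controls and 0.95 for SAHH-KO. No 2 libraries of a group were identical. Each was counted as 1 replicate, although differing values do not show that libraries are independent. Floors of 3 reads cover counting error only.

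Genes with at least 1 FPKM in at least 3 libraries entered limma 3.58.1 in R 4.3.3 on log2(FPKM + 1), with an intensity trend and the group as its term. The test was two-sided, with Benjamini-Hochberg adjustment over all 10362 genes. Fold changes on that scale understate changes of low genes. Levels of different genes are compared per kilobase of the deposited gene length. The script was tested on simulated data. Every tested member was to be given, by library where it passed with a mean of at least 10 FPKM or belongs to a complex described. From the regulator list the 10 smallest p-values were named, with the eIF2α kinases Eif2ak2, Eif2ak3 and Eif2ak4, Ppp1r15a and Eif4ebp1. The members, lists and tests were chosen with earlier results of these data known. Alternatives were a pseudocount of 0.1, no filter, a minimum of 5 FPKM, TPM or assigned-read scaling, no intensity trend, voom on recovered reads, a replicate block and leaving out each library. Of the members, 9 share at least 25% of their 50-base words, on either strand, with other GENCODE M21 genes (Eef1a1, Eef1akmt4, Eef1g, Eif2s3x, Eif3d, Eif3j1, Eif3j2, Eif4a1 and Eif4ebp3). Eef1akmt4, Eif3d and Eif4ebp3 share them mainly with a gene that overlaps them. Reads of the 9 may be split with copies or with such overlapping genes. For 11 members at least 10% of exon bases overlap another gene, whose reads cannot be told apart if strand was not used. Figures were drawn in Python with matplotlib.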

Additional observations from a re-analysis of the deposited data

How the results depend on the processing

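Over the 8 settings that kept all libraries, the members called numbered 6 to 10 higher and 18 to 35 lower, the regulators called 23 to 27 and all genes called 3929 to 5938. Leaving out 1 library gave 6 to 12 members higher, 17 to 29 lower, 21 to 27 regulators and 4438 to 5903 genes. Of the 34 members called, 19 kept their call in all 14 alternatives and 14 lost it in at least 1. Eef2k kept it in the 13 in which it was tested. That is not counted as support, since Eef2k passed the filter through its SAHH-KO libraries alone. A call was gained in at least 1 alternative by 17 members. Fold changes that turned were those of genes that did not pass. With TPM scaling they became -0.0431 for Eef1g, -0.160 for Eif3e, -0.118 for Eif3i, -0.110 for Eif3m and -0.0956 for Eif4b, and with assigned-read scaling -0.0410, -0.155, -0.115, -0.106 and -0.0930. Those scalings move the median fold change of all genes by -0.15 and -0.13. With 1 library left out at a time, the values of Eif2b3 ran from -0.0439 to 0.0150, of Eif3e from -0.181 to 0.124 and of Eif3m from -0.100 to 0.171. The cause was not tested.

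With the replicate number as a block, 9 members were higher and 25 lower, 26 regulators and 5490 genes passed, and Eif3h lost its call (adjusted p = 0.0517). Deviations of equally numbered libraries correlated at 0.0955, 0.101 and -0.00557 across genes. Such values cannot decide whether equally numbered libraries share an animal or culture. Control replicate 3 correlated best with SAHH-KO replicate 2, the other controls with their own number. With 3 libraries a group, precision is set by the spread between them, and genes with under 3 reads cannot be told from 0.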
